A study of Homo sapiens with 7 samples.

Results

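The genes described here encode the kinases that phosphorylate serine-arginine-rich (SR) splicing factors, together with their close relatives. They are SRPK1, SRPK2 and SRPK3, the Cdc2-like kinases CLK1, CLK2, CLK3 and CLK4, the relatives DYRK1A and DYRK1B, and the spliceosomal kinase PRPF4B. These 10 genes were listed by name, as the targets of the inhibitor SRPIN340 and their relatives, out of 19978 genes in the deposited table. All 10 had a row, and 9 passed the filter on low counts, SRPK3 being the exception. The kinases were measured as mRNA in HEK-293, an embryonic kidney line of human origin, by sequencing of poly(A)-selected RNA. Control cells (2 samples) were kept in DMEM of pH 7.4 with DMSO. SRPIN340-treated cells (2 samples) were kept in the same medium with 10 µM SRPIN340 in place of DMSO alone. Acidosis cells (3 samples) were kept in acidified DMEM of pH 6.6 with DMSO. Every culture was treated for 48 h, at 1 dose, 1 acid pH and 1 time. The labels number the samples of a group as repeats.

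SR proteins carry a domain of repeated arginine-serine dipeptides, and phosphate groups on its serines set where the protein sits and what it binds. SRPK1 and SRPK2 act largely in the cytoplasm, where phosphorylation prepares SR proteins for import into the nucleus, and SRPK3 is best known from muscle. The CLK enzymes act in the nucleus, where further phosphorylation releases SR proteins from nuclear speckles, the bodies in which splicing factors are stored. DYRK1A also phosphorylates splicing factors, and PRPF4B acts within the spliceosome as it is activated. SRPIN340 blocks the enzyme activity of SRPK1 and SRPK2, which mRNA counts do not measure, so the treatment has no check on its target in these data.

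The totals ran from 21788457 to 24110460 counts per sample in control and SRPIN340 and from 13615816 to 21370143 in acidosis. The top 100 genes by count took up 24.1% to 24.8% of an acidosis library and 15.2% to 15.4% of any other, so the scaling of the libraries bears on every acidosis value. Levels are given as CPM, a gene's counts relative to the library total scaled to a fixed size. Totals were scaled further by the trimmed mean of M values (TMM), which assumes that most genes do not change. With this scaling 32.5% of tested genes were higher and 34.2% lower in acidosis (edgeR adjusted p under 0.05). Whether the assumption holds there was not tested. The median log2 change of all 14863 tested genes in acidosis was -0.052 with this scaling, -0.22 with upper-quartile factors and -0.63 with total counts only. In bulk RNA, fewer cells with a transcript and less of it per cell cannot be told apart. All 8 marker genes of HEK-293 on the list used (among them VIM, NEFL and PAX2) were detected, and 3 of them passed as higher and 4 as lower in acidosis. HBB, ALB, PTPRC and PECAM1, markers of other cell types, held at most 28 counts in any library. The fibroblast gene COL3A1 held 16 to 152 counts and was lowest in acidosis, while PTPRC, a leukocyte gene, passed as higher there (log2 change 2.12, adjusted p = 0.0473) from 1 and 8 counts in control to 12, 9 and 7. The part of these genes in the results was not tested.

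Transcripts of the kinases moved in acidosis mainly through CLK1 and CLK3. CLK1 was 4.53 times its control level and CLK3 3.24 times, while SRPK2, PRPF4B and CLK4 were 1.35 to 1.48 times theirs. A gene was said to pass the test at an adjusted p under 0.05 in edgeR, with the adjustment over all tested genes. In acidosis against control, 5 of the 9 tested kinases passed as higher and 0 as lower, against 32.5% of all genes passing as higher and 34.2% as lower. Of these, 2 passed with a fold over 2 as higher and 0 as lower, where the share of all genes was 14.4% and 19.1%. An unadjusted p under 0.05 in edgeR was held by 6 of the 9 kinases and by 10384 of all 14863 genes. Changes were thus common in the whole transcriptome, and the kinases' median log2 change was 0.43. In SRPIN340 against control, 1 kinase (CLK4) passed as lower, against 1.53% of all genes, and 0 as higher. There 4 of the 9 kinases had an unadjusted p under 0.05, against 2621 of all 14863 genes. The kinases' median log2 change there was -0.08. Both comparisons use the same 2 control samples.

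**Figure D1:**
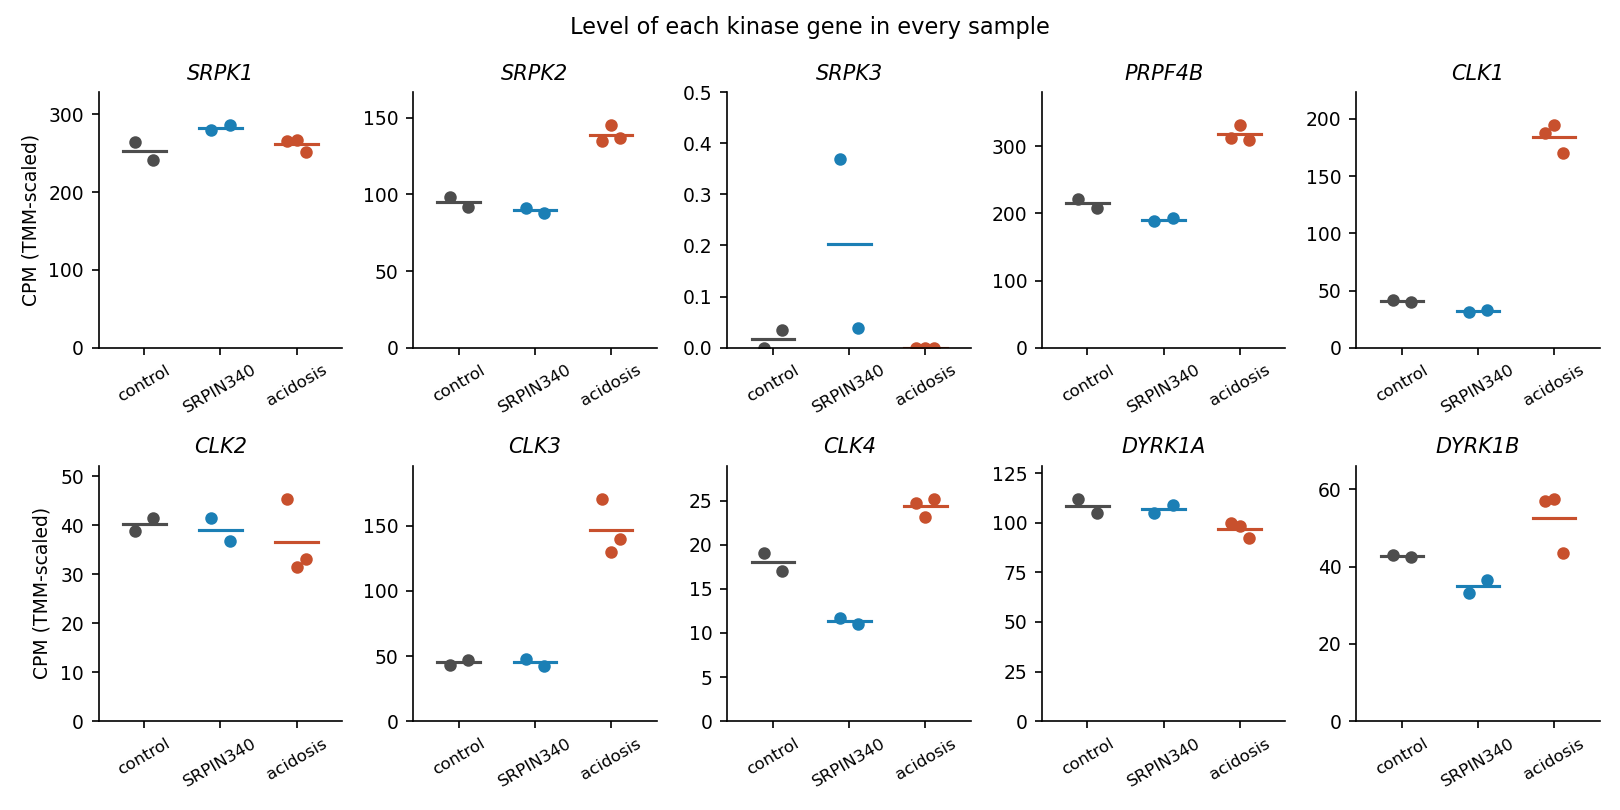
Level of each kinase gene, in CPM on TMM-scaled totals (vertical axis, from 0, a separate scale for each gene), in control, SRPIN340 and acidosis samples. Points are samples and lines are group means, and the acidosis points of CLK1 (170.0 to 194) and CLK3 (130.1 to 171) lie far above all others of the same gene.

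SRPK1, one of the enzymes that SRPIN340 inhibits, was the most abundant of the kinases by CPM in control. Its levels were 265 and 241 CPM in control, 280.0 and 286 with SRPIN340, and 266, 268 and 252 in acidosis. The range of the acidosis samples overlapped that of the control samples, and both SRPIN340 samples lay above it. The log2 change in acidosis was 0.05 (SE 0.0663, 95% interval -0.10 to 0.20, edgeR adjusted p = 0.522). With SRPIN340 it was 0.16 (SE 0.0721, adjusted p = 0.280), which did not pass. The direction in acidosis rested on the scaling, with -0.11 under upper-quartile factors and -0.52 under total counts only, and on 1 library, with -0.04 when control replicate 2 was left out.

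SRPK2, the other target of the inhibitor, was at 98.1 and 91.8 CPM in control, at 91.3 and 88.2 with SRPIN340, and at 135.0, 145.0 and 137 in acidosis. All 3 acidosis samples lay above both other groups. It rose by 0.55 on the log2 scale in acidosis (SE 0.0741, adjusted p = 0.000113). With SRPIN340 the log2 change was -0.08 (SE 0.0798, adjusted p = 0.663). Under total counts only the acidosis value was -0.03.

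The balance between these genes can be read within each library, where the scaling cancels. SRPK1 held 73.0% and 72.4% of the summed SRPK1 and SRPK2 counts in control, 75.4% and 76.4% with SRPIN340, and 66.3%, 64.9% and 64.8% in acidosis. The groups did not overlap, with the SRPK1 share lowest in acidosis and highest with SRPIN340. The log2 ratio of SRPK2 to SRPK1 was 0.50 higher in acidosis than in control and 0.25 lower with SRPIN340, at -1.41 ± 0.0286 (SD, n = 2) in control, -0.91 ± 0.0551 (n = 3) in acidosis and -1.66 ± 0.0572 (n = 2) with SRPIN340. An exact permutation test over samples (two-sided) gave p = 0.2 for acidosis and p = 0.333 for SRPIN340, the smallest that 3 against 2 and 2 against 2 samples allow.

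SRPK3 was close to absent. Its rounded counts were 0 and 1 in control, 10 and 1 with SRPIN340, and 0 in each acidosis sample. A count of 0 allows up to 3 counts. SRPIN340 replicate 1 lay above that at 10 while replicate 2 did not. SRPK3 did not pass the filter, so its groups were not compared. SRPK3 lies on the same strand as PLXNB3 and shares 1432 exonic bases with it (30.2% of its own), and PLXNB3 itself held 4 to 49 counts, so the few SRPK3 counts cannot be placed with certainty.

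PRPF4B, the kinase of the spliceosome, was at 221 and 208 CPM in control, at 189 and 193 with SRPIN340, and at 312, 331 and 309 in acidosis. No groups overlapped, and the order was SRPIN340, control, acidosis. It rose by 0.56 on the log2 scale in acidosis (SE 0.0642, adjusted p = 3.5e-05), a value of -0.01 under total counts only. The log2 change with SRPIN340 was -0.17 (SE 0.0692, adjusted p = 0.237) and did not pass. Relative to SRPK1 in the same library, the log2 ratio of PRPF4B was 0.51 higher in acidosis and 0.34 lower with SRPIN340 than in control. Neither comparison of the ratio had overlapping groups, with exact permutation p = 0.2 and p = 0.333. The ratios of PRPF4B and SRPK2 share the SRPK1 count, so they are not separate results.

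Among the CLK genes the levels in acidosis parted. CLK1, a kinase known for adjusting splicing after stress, had 41.6 and 39.6 CPM in control, 30.8 and 32.6 with SRPIN340, and 188, 194 and 170.0 in acidosis. Each acidosis sample was at more than 4 times the control mean of 40.6, and both SRPIN340 samples were below both control samples. CLK1 rose by 2.18 on the log2 scale in acidosis (SE 0.0898, adjusted p = 5.05e-08) and ranked 452 from the top by log2 change among all tested genes. With SRPIN340 its log2 change was -0.36 (SE 0.0939, adjusted p = 0.0858), which did not pass in edgeR but did in DESeq2 (adjusted p = 0.0165). The difference between acidosis and SRPIN340, tested directly, was 2.54 (SE 0.0919, adjusted p = 2.69e-08).

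CLK3, a nuclear kinase of the same family, was at 43.5 and 47.3 CPM in control, at 48.1 and 42.5 with SRPIN340, and at 171, 130.1 and 140.0 in acidosis. The SRPIN340 samples spanned the control samples, while all acidosis samples were higher, with the widest spread in acidosis (SD 21.1). It rose by 1.70 on the log2 scale (SE 0.126, adjusted p = 1.92e-06). With SRPIN340 the log2 change was -0.0029, with a 95% interval from -0.30 to 0.30. CLK1 and CLK3 passed with a fold over 2 in acidosis under each scaling run, the lowest values being 1.60 for CLK1 and 1.12 for CLK3 with total counts only.

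CLK4, the family member closest to CLK1, had the lowest CPM of the CLK genes. Its levels were 19.0 and 17.1 CPM in control, 11.7 and 11.0 with SRPIN340, and 24.7, 23.1 and 25.2 in acidosis. The 3 groups did not overlap. CLK4 fell by 0.67 on the log2 scale with SRPIN340 (SE 0.136, adjusted p = 0.0405), from a mean of 18.0 to 11.4 CPM. That call was near its limit: without acidosis replicate 1 or 3, the adjusted p was 0.0552 and 0.0566. Leaving out a control or SRPIN340 sample leaves 1 sample in that group, with log2 changes of -0.75 to -0.59. Over the alternatives with at least 2 samples in each group, the adjusted p ranged from 0.00332 (DESeq2) to 0.117 (replicate block). In acidosis CLK4 rose by 0.43 (SE 0.124, adjusted p = 0.0115). The value became 0.27 (adjusted p = 0.0790) with upper-quartile factors and -0.14 with total counts only. It was 0.34 without control replicate 2, which leaves 1 control sample. Acidosis against SRPIN340 gave 1.10 (SE 0.129, adjusted p = 4.01e-05).

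CLK2, also known for a part in insulin signalling, behaved unlike CLK1 and CLK3. It was at 38.9 and 41.6 CPM in control, at 41.4 and 36.8 with SRPIN340, and at 45.4, 31.5 and 33.0 in acidosis. The groups overlapped in both comparisons. The log2 change was -0.13 in acidosis (SE 0.154, 95% interval -0.48 to 0.22, adjusted p = 0.485) and -0.04 with SRPIN340 (SE 0.166, adjusted p = 0.935). Acidosis replicate 1 stood above the other acidosis samples, and without it the acidosis value was -0.32 (adjusted p = 0.0360).

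**Figure D2:**
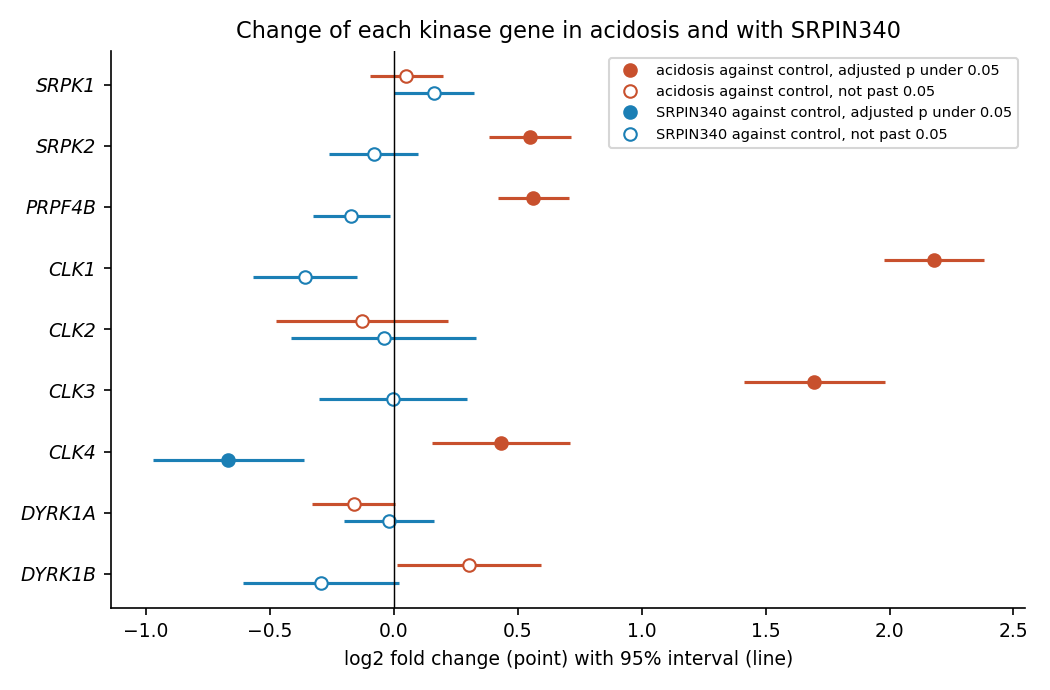
Log2 fold change (horizontal axis) of the 9 tested kinase genes in acidosis (orange) and with SRPIN340 (blue) against the same 2 control samples, with 95% intervals from the edgeR fit as lines and filled points for an adjusted p under 0.05. CLK1 (2.18) and CLK3 (1.70) stand to the right of the other genes in acidosis, and CLK4 (-0.67) is the one filled SRPIN340 point.

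The makeup of the family shifted with these changes. The summed level of the 4 CLK genes was 144 CPM in control (mean, SD 1.76, n = 2), 128 with SRPIN340 (SD 6.36, n = 2) and 392 in acidosis (SD 31.9, n = 3). CLK1 held 29.1% and 27.2% of the summed CLK counts in control, 23.4% and 26.5% with SRPIN340, and 43.8%, 51.3% and 46.2% in acidosis. The CLK2 share was 27.2% and 28.6% in control, 31.4% and 29.9% with SRPIN340, and 10.6%, 8.31% and 8.97% in acidosis. CLK4 held 13.3% and 11.7% in control, 8.86% and 8.95% with SRPIN340, and 5.77%, 6.10% and 6.84% in acidosis, so that its share was lowest where its own level was highest. CLK3 held 30.4% and 32.5% in control, 36.4% and 34.6% with SRPIN340, and 39.8%, 34.3% and 38.0% in acidosis.

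As log2 ratios to CLK1 within a library, CLK2 was 2.33 lower in acidosis than in control, CLK4 1.74 lower and CLK3 0.49 lower.
With SRPIN340 the ratios of CLK2 and CLK3 to CLK1 were 0.32 and 0.35 higher than in control, and that of CLK4 was 0.31 lower. The groups did not overlap in these comparisons, and each had the smallest p its design allows in the exact permutation test, 0.2 and 0.333. The same p resulted after Benjamini-Hochberg adjustment over the 6 ratios computed. Groups of these sizes without any difference would separate fully at those rates, and the share of other gene pairs that separate was not computed. The ratios of a treatment share the CLK1 count, so they are not separate results. With SRPIN340 the log2 change was -0.36 for CLK1, -0.04 for CLK2 and -0.0029 for CLK3. The direction of these ratios does not depend on how libraries were scaled.

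**Figure D3:**
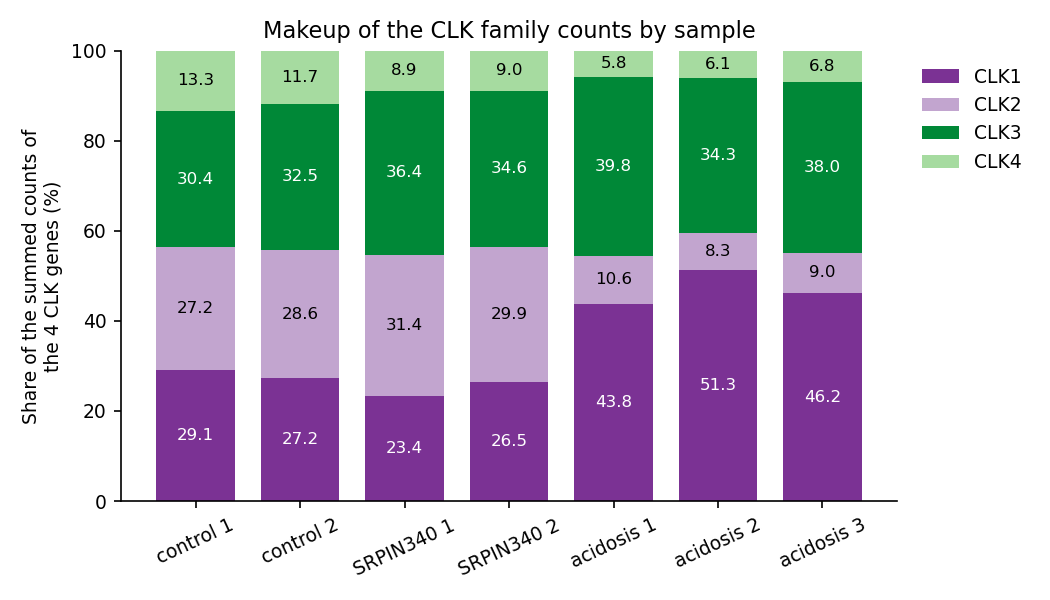
Share of each CLK gene in the summed counts of the 4 CLK genes (vertical axis, percent), with 1 bar per sample. CLK1 makes up 43.8% to 51.3% of the bar in acidosis against 23.4% to 29.1% in the other samples, and CLK2 8.31% to 10.6% against 27.2% to 31.4%.

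DYRK1A, whose gene on chromosome 21 is known for its sensitivity to dosage, was at 112 and 105 CPM in control, at 105 and 109 with SRPIN340, and at 99.8, 98.2 and 92.4 in acidosis. The acidosis samples lay just below the control samples, and the log2 change of -0.16 (SE 0.0748, 95% interval -0.33 to 0.01, adjusted p = 0.0802) did not pass. With upper-quartile factors it was -0.33 (adjusted p = 0.00294). The SRPIN340 samples lay within the control range, at a log2 change of -0.02 (adjusted p = 0.931).

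DYRK1B, a relative known from resting cells, was at 43.1 and 42.5 CPM in control, at 33.2 and 36.6 with SRPIN340, and at 57.0, 57.6 and 43.6 in acidosis. Acidosis replicate 3 lay close to the control samples and the other acidosis samples well above them. The log2 change in acidosis was 0.30 (SE 0.129, adjusted p = 0.0623) and 0.42 (adjusted p = 0.00565) without that library, and -0.27 with total counts only. It passed in DESeq2 (0.33, adjusted p = 0.0374) and with RLE scaling (0.33, adjusted p = 0.0461), but not with upper-quartile factors (0.14, adjusted p = 0.359). Without acidosis replicate 1 or 2 the log2 change was 0.24 each (adjusted p = 0.159 and 0.139). With SRPIN340 it was -0.30 (SE 0.140, adjusted p = 0.311). The log2 ratio of DYRK1B to DYRK1A was 0.45 higher in acidosis and 0.28 lower with SRPIN340 than in control, with no overlap of groups and exact permutation p = 0.2 and p = 0.333.

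Since acidosis and SRPIN340 share their controls, the difference between the treatments was tested directly as acidosis against SRPIN340. There 6 of 9 kinases passed as higher and 0 as lower, against 32.8% and 35.0% of all genes. With a fold over 2, 3 passed as higher (CLK1, CLK3 and CLK4), against 14.9%. Of these, CLK4 stood at 0.94 with upper-quartile factors and at 0.49 with total counts only, below that fold. PRPF4B differed by 0.73 (SE 0.0646, adjusted p = 5.83e-06), SRPK2 by 0.63 (SE 0.0744, adjusted p = 4.32e-05) and DYRK1B by 0.60 (SE 0.131, adjusted p = 0.00255). SRPK1, CLK2 and DYRK1A did not pass, at -0.11, -0.09 and -0.14. With total counts only, CLK1, CLK3 and CLK4 were the 3 that passed as higher, and SRPK1, CLK2 and DYRK1A passed as lower.

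**Figure D4:**
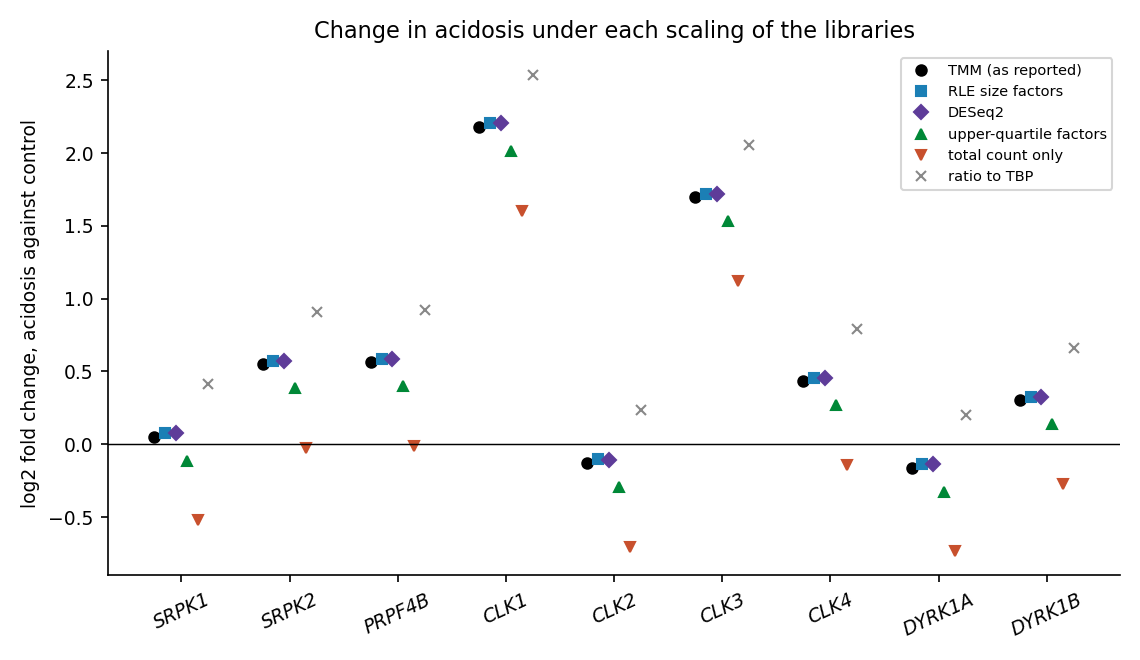
Log2 fold change of each kinase gene in acidosis against control (vertical axis) under each way of scaling the libraries, 1 marker per scaling, and as a ratio to TBP. CLK1 and CLK3 stay above 1 throughout (lowest values 1.60 and 1.12), while SRPK2, PRPF4B, CLK4 and DYRK1B lie above 0 except with total counts only.

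TBP was the reference gene of the study's quantitative RT-PCR. With TMM scaling it fell by 0.36 on the log2 scale in acidosis (edgeR adjusted p = 0.0225). With SRPIN340 it was at 0.07 (adjusted p = 0.831). Taken as a ratio to TBP, the acidosis value of each kinase is therefore higher than stated above by the size of that fall.

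Between genes, levels were compared per kilobase of the canonical transcript of GENCODE release 44. In control, SRPK1 was highest at 58.1 CPM per kilobase, followed by PRPF4B at 28.6, SRPK2 at 25.8, CLK3 at 24.5, CLK1 at 22.0, CLK2 at 18.7, DYRK1B at 17.2, CLK4 at 7.21 and DYRK1A at 6.37. SRPK2 and CLK3 overlapped over the control samples, and the other neighbours did not. In acidosis CLK1 (99.6) and CLK3 (79.2) stood above SRPK1 (60.2) on this scale, but SRPK1 stayed highest per kilobase of merged exons (39.1, against 36.0 for CLK1 and 7.46 for CLK3) and per kilobase of coding sequence (133, against 127 and 99.9). The lowest acidosis sample of CLK1 and the highest of CLK3 both stood at 92.0. The order depends on which length is used. With merged exons or with the coding length in place of the canonical transcript, 3 of 10 ranks were kept in control. CLK3 (19697 merged exonic bases, 1854 canonical) and DYRK1A (26763 and 17024) have the most exonic sequence, and CLK3 went from rank 4 to rank 8 with merged exons.

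CLK1 and CLK4 are known to keep introns in a portion of their nuclear transcripts. GENCODE release 44 lists 14 transcripts of CLK1 (3 protein-coding and 8 with a retained intron), 13 of CLK4 (2 and 7) and 27 of CLK3 (12 and 8). The counts are summed per gene and do not separate spliced from intron-retaining transcripts, so whether the rises of CLK1, CLK3 and CLK4 hold for coding transcripts was not tested. CLK2 and CLK3 also have processed pseudogene copies in the genome, with which reads could be shared. CLK3 shares 701 exonic bases (3.56% of its own) with EDC3 on the other strand, and EDC3 fell by 0.64 in acidosis (adjusted p = 0.000141), opposite to CLK3. SRPK1 shares 28.1% of its exonic bases with LHFPL5 on the other strand, which held 7 to 22 counts per library. SRPK2 shares 4.76% with KMT2E, which fell by 0.41 in acidosis (adjusted p = 0.00264). The use of strand in the quantification is not given in the sources used here.

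The promoters of the CLK genes that passed in acidosis are shown because CLK1, CLK3 and CLK4 passed as higher while CLK2 did not. They are RefSeq windows on GRCh38.p14, from 250 bases before to 50 bases after an annotated start, written 5′ to 3′ on the gene's strand. Capitals mark the letters of the motifs found by a search of both strands: the GC box GGGCGG (or CCGCCC), the E-box CACGTG and the ETS motif CCGGAAG. CLK1 is at chr2:200864609-200864908 (minus strand, the first of 2 starts), CLK3 at chr15:74615586-74615885 (plus strand, the second of 2 starts) and CLK4 at chr5:178627001-178627300 (minus strand).
CLK1: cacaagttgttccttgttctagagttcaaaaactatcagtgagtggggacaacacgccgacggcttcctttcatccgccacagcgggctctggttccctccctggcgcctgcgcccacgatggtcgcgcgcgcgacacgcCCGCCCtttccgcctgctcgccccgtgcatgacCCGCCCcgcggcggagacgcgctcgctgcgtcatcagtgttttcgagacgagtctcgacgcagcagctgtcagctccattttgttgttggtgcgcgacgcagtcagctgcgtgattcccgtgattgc
CLK3: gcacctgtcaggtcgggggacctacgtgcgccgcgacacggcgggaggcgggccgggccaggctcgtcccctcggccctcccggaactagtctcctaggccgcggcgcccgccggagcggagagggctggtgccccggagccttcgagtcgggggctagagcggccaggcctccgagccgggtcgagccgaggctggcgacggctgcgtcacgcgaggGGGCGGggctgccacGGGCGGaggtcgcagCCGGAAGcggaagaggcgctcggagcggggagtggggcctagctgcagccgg
CLK4: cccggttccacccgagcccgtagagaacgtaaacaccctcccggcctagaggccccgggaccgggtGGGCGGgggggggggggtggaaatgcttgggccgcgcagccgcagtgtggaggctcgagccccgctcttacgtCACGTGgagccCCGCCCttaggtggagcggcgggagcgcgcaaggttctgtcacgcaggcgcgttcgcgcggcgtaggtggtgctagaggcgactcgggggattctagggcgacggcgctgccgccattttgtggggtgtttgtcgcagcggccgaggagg
The CLK1 window held 2 GC boxes, the CLK3 window 2 GC boxes and 1 ETS motif close to the start site, and the CLK4 window 2 GC boxes and 1 E-box. The other CLK1 window overlaps the one shown and holds the same 2 GC boxes, so both windows are counted below. The other CLK3 window held none of the motifs. The table held 19 windows for 9 of the kinases, PRPF4B having none. GC boxes were found in 12 of the 19 windows, at least 1 for each of the 9 genes, against 45.0% of all 35116 promoters. E-boxes were found in 4 windows, of CLK2, CLK4, DYRK1A and DYRK1B, against 7.26% of all promoters, and the ETS motif in 1, of CLK3, against 10.3%. The AP-1 motif TGACTCA (4.95% of all promoters), the cyclic AMP element TGACGTCA (1.85%) and the heat shock core GAANNTTC (6.77%) were found in 0 of the 19 windows. No motif searched was found in CLK1, CLK3 and CLK4 while absent from CLK2, whose own window held 2 GC boxes and an E-box.

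Genes with a like pattern were sought for the kinases with the highest and the lowest change in acidosis, by the root mean square distance between log2 CPM profiles centred on their means over the 7 samples. Nearest to CLK1 were SPEN at 0.0991 (log2 change 2.09 in acidosis), AOC2 at 0.119 (2.32) and TSPYL2 at 0.125 (2.33). Nearest to DYRK1A were DSP at 0.0232 (-0.17), C5orf22 at 0.0247 (-0.19) and DNMBP at 0.0383 (-0.15). Among the kinases themselves, SRPK2 and PRPF4B were nearest to each other at a distance of 0.0509, and SRPK1 and DYRK1A at 0.0936. Other genes lay nearer still, 22 to SRPK2, 21 to PRPF4B, 152 to SRPK1 and 199 to DYRK1A. CLK1 and CLK3 were each other's nearest kinase at 0.385, a wider distance, with 371 other genes nearer to CLK1 and 1648 to CLK3. PRPF4B was the nearest kinase to CLK4 (0.208, 316 other genes nearer) and to DYRK1B (0.159, 322 nearer). DYRK1A was the nearest to CLK2 (0.158, 304 nearer).

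The partners of these kinases moved in both directions. Of other CMGC-group kinases and casein kinase 2 subunits (13 of 14 tested), 9 passed as higher in acidosis and 2 as lower, against 32.5% and 34.2% of all genes, at a median log2 change of 0.45, against -0.052 over all genes. CSNK2A2, a catalytic subunit of casein kinase 2, rose by 1.34 and HIPK2, a nuclear kinase of the p53 response, by 1.08, while CDK13, a kinase of RNA polymerase II, fell by 0.97. CDK11B fell by 0.51 and CDK11A rose by 0.84, but the copies are nearly identical and reads may be split between them. With SRPIN340, 0 of the 13 passed, and the median was -0.02. An unadjusted p under 0.05 in edgeR was held by 4 of the 13 and by 2621 of all 14863 genes.

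Phosphatases that act on SR proteins (9 tested) passed as higher in acidosis in 7 cases and as lower in 2, against 32.5% and 34.2% of all genes, at a median of 0.37. The catalytic subunits of PP2A, PPP2CB and PPP2CA, rose by 1.43 and 1.39. Of its scaffold subunits, PPP2R1A rose by 1.18 (from a mean of 277 to 627 CPM) and PPP2R1B fell by 1.22, and PPP1R8, a nuclear inhibitor of PP1, fell by 0.46. With SRPIN340, 2 passed as lower, against 1.53% of all genes, and 0 as higher, at a median of -0.16. Of the SR protein substrates (14 tested), 3 passed as higher in acidosis and 6 as lower, against 32.5% and 34.2% of all genes. Their median was -0.23, against -0.052 over all genes. SRSF4 rose by 0.68 and SRSF9 by 0.31, while SRSF3 fell by 1.51 and SRSF6 by 0.88. With SRPIN340, 3 substrates passed as lower, against 1.53% of all genes, and 0 as higher, at a median of -0.22. Chaperones, nuclear anchors and import factors linked to SRPK1 and the SR proteins (8 tested) passed as higher in acidosis in 5 cases, among them the nuclear scaffold proteins SAFB and SAFB2, and as lower in 2, against 32.5% and 34.2% of all genes, at a median of 0.40. The chaperones HSPA8 and HSP90AB1 rose by 1.54 and 0.92, while the co-chaperone DNAJC8 fell by 1.39 and TNPO3, the carrier that brings phosphorylated SR proteins into the nucleus, fell by 0.74. With SRPIN340, 2 of these 8 (HSPA8 and SAFB2) passed as lower, against 1.53% of all genes, and 0 as higher, at a median of -0.30. An unadjusted p under 0.05 in edgeR was held there by all 8, by 8 of the 14 substrates and by 3 of the 9 phosphatases. Over all genes it was held by 2621 of 14863. Log2 changes were below 0 for 8, 12 and 7 of these genes, against 7356 of all genes.

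**Figure D5:**
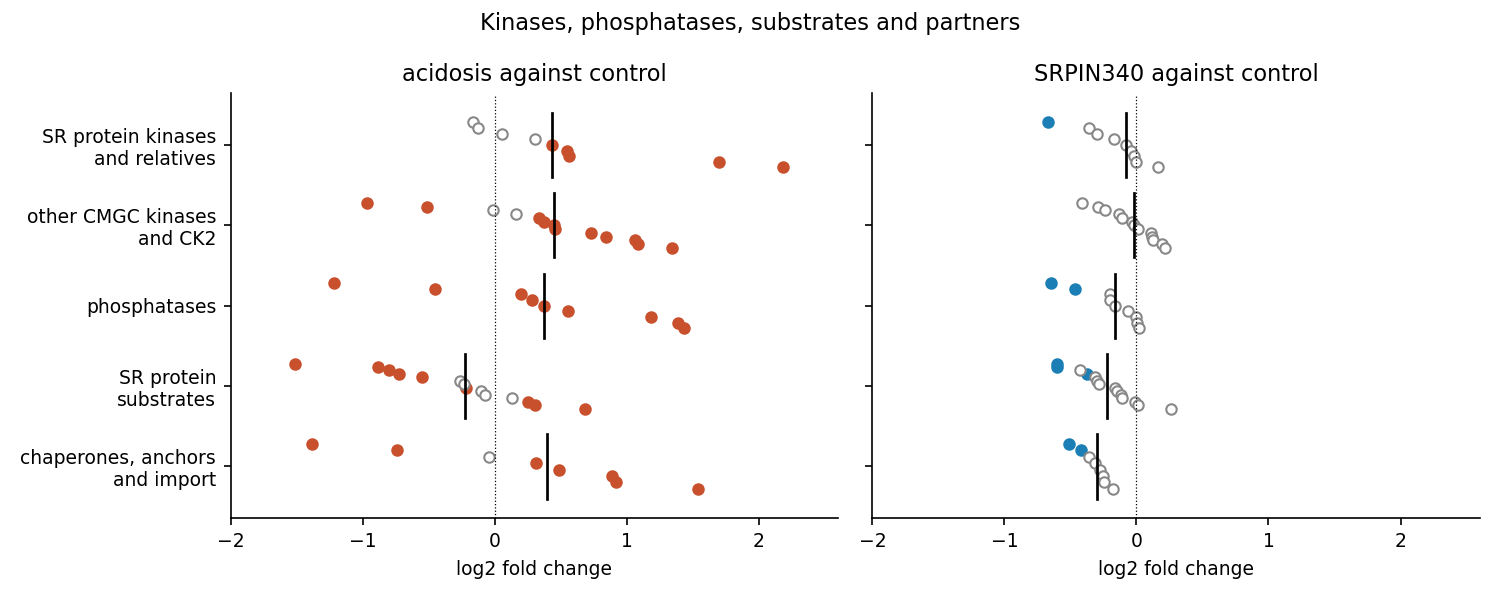
Log2 fold change (horizontal axis) of each tested gene of the kinases and of 4 lists of related genes, in acidosis against control (left) and SRPIN340 against control (right). Filled points have an adjusted p under 0.05, vertical bars are list medians (0.43 for the kinases and -0.23 for the SR protein substrates in acidosis).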

How the data were processed

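RNA from 7 HEK-293 samples was sequenced. The authors trimmed reads (Trimmomatic 0.39 and Trim Galore 0.6.6, per the submitters' processing notes), quantified transcripts with Salmon 1.5.1 and summed them to genes. The authors deposited estimated counts per gene, not whole and not normalized between samples. The option used to sum them is not given in the sources used here. Of 19978 genes, 19977 matched GENCODE release 44 and 1951 were at 0 in every sample.

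Here the expected counts were rounded. The quasi-likelihood test of edgeR 4.0.16 (R 4.3.3) was run with TMM scaling and filterByExpr, group as the only term and all 7 samples in 1 fit, with Benjamini-Hochberg adjustment over the 14863 genes tested. Standard errors were taken from the test statistic. TMM factors averaged 1.18 in control, 1.21 with SRPIN340 and 0.790 in acidosis. Replicates differed by more than sampling noise (chi-square per degree of freedom 6.89 to 12.3). The study calls the sequenced repeats biological, while the labels do not say whether they were separate cultures. It also describes replicates within each repeat, while there is 1 sample per repeat here. The labels do not say how those replicates enter a sample. Where repeats are not separate cultures, p-values measure technical spread. The floor covers counting error only, while the intervals come from the fit and hold the spread between samples. Tests were checked on simulated data in which few genes changed, in both directions. That check does not cover the scaling of the acidosis libraries, where changes were common. Alternatives were DESeq2 1.42.0, other scalings (RLE, upper-quartile, total count, ratio to TBP), no filter, only the 2 groups, a replicate block and each sample left out.

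The kinases and lists were chosen with earlier results of these data known. All 10 kinases were named, and from each list the 2 highest and 2 lowest genes in acidosis among those that passed. CDK11A, PPP2R1A, SAFB, SAFB2, the overlapping genes, COL3A1 and PTPRC were named after their values were seen, and shares within a family were added then too. Promoters came from RefSeq (GRCh38.p14). Proteins were not compared. Python 3.11.15, scipy 1.17.1 and matplotlib 3.10.9 were used.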

Additional observations from a re-analysis of the deposited data

How the results depend on the processing

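In acidosis against control, 2 kinases (CLK1 and CLK3) passed as higher with total counts only in place of 5, and as lower 1 passed with upper-quartile factors, 3 with total counts only and 0 to 1 with a replicate left out (1 without acidosis replicate 1, CLK2). In SRPIN340 against control, 2 passed in DESeq2 (CLK4 and CLK1), 0 with the replicate block (CLK4 adjusted p = 0.117) and 0 to 1 with an acidosis replicate left out. In acidosis against SRPIN340, 3 passed as higher with total counts only, and 2 (upper-quartile factors) and 3 (total counts only) as lower. Ranks kept in the order by length were 3 with merged exons and 3 with the coding length, the latter chosen after seeing the data.

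As a ratio to TBP, 5 values that had not passed turned to higher: in acidosis against control CLK2 (0.23) and DYRK1A (0.20), and in acidosis against SRPIN340 SRPK1 (0.32), CLK2 (0.34) and DYRK1A (0.29). Under the other alternatives the sign turned in 17 values for single kinases. In acidosis against control, with total counts only, SRPK1 was -0.52, SRPK2 -0.026, CLK4 -0.14, DYRK1B -0.27 and PRPF4B -0.011, and SRPK1 was -0.11 with upper-quartile factors and ranged from -0.036 (without control replicate 2) to 0.12 with a replicate left out. In SRPIN340 against control, the values near 0 turned: CLK3 was 0.037 and DYRK1A 0.019 with total counts only, and with a replicate left out CLK2 ranged from -0.13 to 0.041, CLK3 from -0.093 to 0.083 and DYRK1A from -0.070 to 0.028. In acidosis against SRPIN340, DYRK1B was -0.016 with total counts only, and CLK2 ranged from -0.28 to 0.013 with a replicate left out. The cause was not tested.

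The share of higher genes among all that passed in acidosis was 48.8%, 40.6% with upper-quartile factors and 22.8% with total counts only. Deviations of same-numbered samples correlated at -0.115 to 0.063, which gave no sign that the numbers pair the samples. With 2 samples in a group such deviations mirror each other, so these values cannot settle the pairing. The replicate block changed no other count beyond 1.5 times. It moved DYRK1B in acidosis past the threshold (0.42, adjusted p = 0.0131). Depth limits SRPK3, which could be fitted only without the filter, and the acidosis libraries are the shallowest.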
